A study of Mus musculus with 4 samples.

Results

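The killer-cell lectin-like receptors described here are 10 genes, Klra4, Klra7, Klra8, Klra9, Klrb1c, Klrc1, Klrc2, Klrd1, Klre1 and Klrk1, out of 31053 genes in the deposited matrices. They were chosen by name and followed in NK cells, T cells and dendritic cells of the mouse carotid artery by day. The cells came from C57BL/6 mice aged 11 weeks whose carotid arteries were studied before wire injury (day 0) or 3, 7 and 14 days after it. In this injury a wire is passed through the vessel and strips its inner lining. The deep form used here also disrupts the internal elastic lamina. All animals were male, and the vessels of several animals were pooled into 1 single-cell RNA-sequencing library per day, with thrombosed vessels left out. With 1 library per day there was no replicate, so no p-value is given. A difference between days cannot be told apart from a difference between libraries. Intervals are 95% intervals and cover counting error only.

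These receptors sit on natural killer (NK) cells and on some T cells and set how readily such cells kill or secrete cytokines. The Ly49 receptors (Klra genes) are homodimers, most of which read classical MHC class I on the cells they touch. CD94, encoded by Klrd1, pairs with NKG2 proteins (Klrc1, Klrc2) and reads the non-classical molecule Qa-1, whereas NKG2D (Klrk1) reads stress-induced ligands. Inhibitory members carry their own signalling motif and recruit phosphatases, and activating members borrow adaptor proteins such as DAP12 (Tyrobp) and DAP10 (Hcst). Each Ly49 gene is switched on in some NK cells and not in others, a property known as variegated expression.

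The 10 genes lie in 1 cluster on chromosome 6, in the order Klrb1c, Klre1, Klrd1, Klrk1, Klrc2, Klrc1, Klra4, Klra8, Klra9 and Klra7, over 1455 kb. Order and span come from the GENCODE annotation, and only the promoter coordinates below are of GRCm38.p6. Klrd1 and Klre1 are on the plus strand and the other 8 on the minus strand. RefSeq promoters of GRCm38.p6 were matched for 9 of the 10 genes by symbol, and Klrd1 was not matched. The sequences below are shown because the Ly49 genes were detected in fewer NK cell-like cells than the other members. Each is the part of the 250 bases before the RefSeq start that lies outside known transcripts, 5′ to 3′ on the gene's strand, and capitals mark matches to the letters TGTGGT of the Runt motif on either strand.
Klra4 (chr6:130067332-130067521, minus strand): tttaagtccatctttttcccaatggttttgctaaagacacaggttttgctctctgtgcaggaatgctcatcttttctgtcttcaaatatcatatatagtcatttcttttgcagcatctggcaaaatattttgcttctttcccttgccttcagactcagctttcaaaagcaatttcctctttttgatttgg
Klra8 (chr6:130129976-130130148, minus strand): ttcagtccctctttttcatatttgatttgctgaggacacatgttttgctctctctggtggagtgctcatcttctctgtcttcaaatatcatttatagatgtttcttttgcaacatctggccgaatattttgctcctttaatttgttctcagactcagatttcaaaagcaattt
Klra7 (chr6:130233408-130233572, minus strand): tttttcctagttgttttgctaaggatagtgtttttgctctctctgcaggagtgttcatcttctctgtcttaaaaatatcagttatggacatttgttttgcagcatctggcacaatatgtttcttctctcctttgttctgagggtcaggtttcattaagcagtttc
Klra9 (chr6:130193113-130193362, minus strand): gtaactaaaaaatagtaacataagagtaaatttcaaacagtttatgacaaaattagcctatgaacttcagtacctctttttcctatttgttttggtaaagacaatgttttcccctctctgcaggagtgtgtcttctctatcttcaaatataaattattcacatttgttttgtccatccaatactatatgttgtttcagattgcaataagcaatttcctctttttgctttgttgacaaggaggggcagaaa
Klrc1 (chr6:129678974-129679223, minus strand): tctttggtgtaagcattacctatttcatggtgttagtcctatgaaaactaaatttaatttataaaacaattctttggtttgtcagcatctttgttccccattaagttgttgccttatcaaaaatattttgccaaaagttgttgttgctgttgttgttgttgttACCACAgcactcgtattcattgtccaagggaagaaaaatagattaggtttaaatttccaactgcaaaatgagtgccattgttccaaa
Klrk1 (chr6:129623865-129624114, minus strand): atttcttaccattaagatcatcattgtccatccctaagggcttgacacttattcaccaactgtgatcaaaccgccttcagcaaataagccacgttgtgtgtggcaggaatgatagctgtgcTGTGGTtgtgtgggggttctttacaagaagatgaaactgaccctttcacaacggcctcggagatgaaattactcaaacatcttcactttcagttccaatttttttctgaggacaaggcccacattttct

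Alignments used the full 250 bases before each start, including bases inside transcripts that are not shown. The Ly49 promoters resembled one another, and the first of the 2 Klra7 promoters did not: it aligned with those of Klra4, Klra8 and Klra9 over 55, 14 and 61 bases only. Klra4 and Klra8 were 85.1% identical over 249 aligned bases, Klra4 and the second Klra7 promoter 81.8% over 236, and Klra8 and Klra9 82.1% over 184. The letters TGTGGT, which transcription factors of the Runt family can read, were present in the 250-base windows of Klrb1c, Klrc1, Klrc2, Klre1 and Klrk1. None of the windows of the 4 Ly49 genes held them. In Klrc2 and Klre1 the matches lay inside known transcripts, and in Klrb1c, Klrc1 and Klrk1 outside them. Both letters were searched on both strands of the 250 bases before each start, and 14.0% of 32851 mouse promoters held TGTGGT. The letters GTGTGA, read by T-box factors, were present in 12.3% of promoters and, among the members, in the second Klre1 promoter alone. That match also lay inside a known transcript. These matches are descriptions of the letters in a short window.

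The 4 libraries held 6161 barcodes, with 333, 1689, 3001 and 1138 on days 0, 3, 7 and 14, and 5621 were kept. Total counts of unique molecular identifiers (UMIs, which count each captured RNA molecule once) ranged from 2672722 on day 0 to 27973418 on day 7. Libraries shared 217 barcodes, 152 of them between days 0 and 3 and 64 between days 7 and 14. In these pairs the shallower copy had a median of 4.39% and 1.12% of the UMIs of the deeper one. The shallow copies included 0 NK cell-like, 0 dendritic-like and 3 T cell-like cells. Of these 3 cells, 0 were on day 3, 1 on day 7 and 2 on day 14. Without the shallow copies the summed receptor level in T cell-like cells was 0.760 times as high on day 7 as on day 3. This was the same to 3 digits as with them, in a comparison that 1 of 374 cells on day 7 could hardly move.

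Cell classes were rebuilt by clustering without the receptor genes, their partners or their ligands, and named from marker genes. The names may therefore differ from the study's own. NK cell-like cells numbered 0, 57, 158 and 34 on days 0, 3, 7 and 14, or 0%, 3.78%, 5.87% and 3.12% of the cells kept. On day 0, 0 of 329 cells allow a share of up to 0.912%. All 15 NK markers were detected in these cells on each of the 3 days. Ncr1, the activating receptor NKp46, stood at 1018, 617 and 776 CPM (UMIs of the gene over all UMIs of the same cells, scaled as counts per 1e+06) on days 3, 7 and 14. T cell markers were also present: 11, 17 and 11 of 19 were detected on days 3, 7 and 14, at 1110, 1389 and 1307 CPM in sum, against 40348, 19190 and 19333 CPM for the NK markers. Trdc was found in 22.8%, 34.2% and 26.5% of NK cell-like cells and Trac in 22.8%, 10.8% and 2.94%, while Cd8a was at 0. The part of T cells in the results was not tested beyond leaving out cells with a Cd3 UMI, which gave a summed day 7 over day 3 ratio of 0.808. T cell-like cells numbered 17, 66, 374 and 98, and dendritic-like cells 0, 171, 365 and 44. CPM values here are not scaled by gene length, since each UMI marks a 3′ end.

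The receptors as a group were highest in NK cell-like cells on every day measured. Their summed level was 7151 CPM (6836 to 7476) on day 3, 5600 CPM (5451 to 5751) on day 7 and 5024 CPM (4668 to 5400) on day 14. It fell from each day to the next by more than counting error, to 0.783 times the day 3 level on day 7 (0.743 to 0.825) and to 0.897 times the day 7 level on day 14 (0.830 to 0.969). As means of single-cell CPM both falls were smaller, and days 7 and 14 were close to each other. With separate clustering of every library the day 14 over day 7 ratio was 0.498, on a different set of cells. Then 92 cells of day 14 fell into this class in place of 34, and 34 into the T cell-like class in place of 98. Over the same days the summed level of 12 fibroblast markers in these cells went from 335 to 1103 and 1600 CPM (10, 12 and 10 detected), and its part in the result was not tested. The members did not move together. Between days 3 and 7, 0 of 10 were at least 1.5-fold higher and 3 were at least 1.5-fold lower, when 16.3% and 17.4% of all 6641 genes tested were past the same fold. From day 7 to day 14, 2 members were higher and 3 lower, against 16.9% and 17.9% of 6346 genes. From day 3 to day 14, 0 were higher and 7 lower, against 13.9% and 18.9% of 3426 genes.

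**Figure D1:**
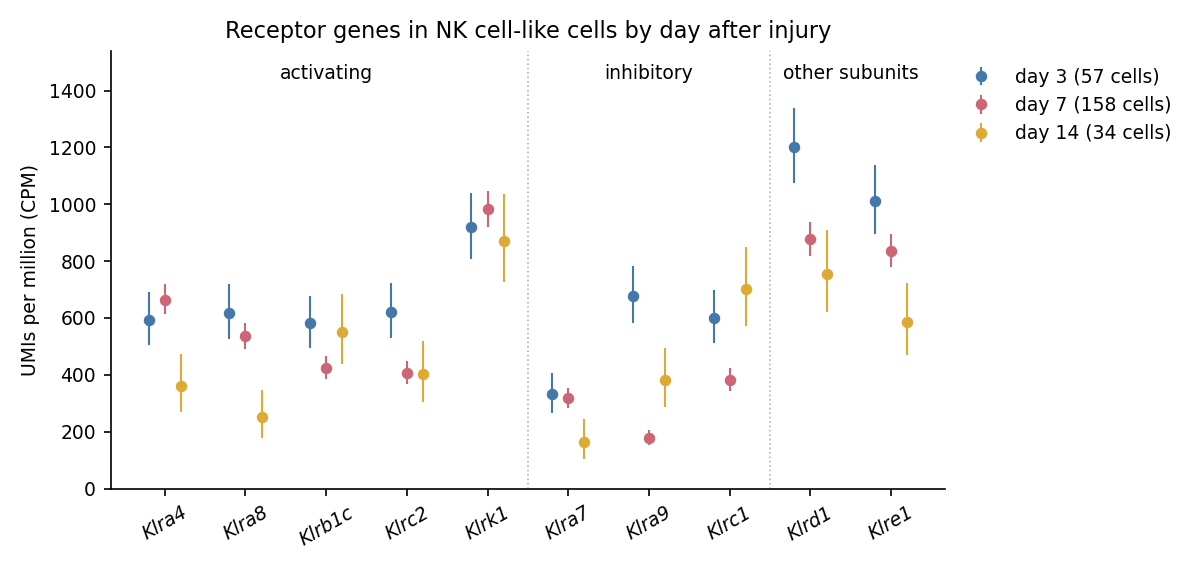
CPM of each receptor gene (y axis) in NK cell-like cells on day 3 (57 cells), day 7 (158 cells) and day 14 (34 cells), with exact 95% Poisson intervals of counting error, grouped by role. Klra9 drops on day 7, Klra4, Klra7 and Klra8 are lowest on day 14, and Klrk1 stays between 871 and 982 CPM.

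Among the activating receptors, the pair Klra4 and Klra8 had the widest falls. Klra4 (Ly49D, which signals through DAP12) was at 592 CPM on day 3, 665 CPM on day 7 and 361 CPM on day 14. Klra8 (Ly49H, which reads a cytomegalovirus protein) was at 618, 535 and 252 CPM on the same days. Both were lowest on day 14, with day 14 over day 7 ratios of 0.543 (0.402 to 0.719) for Klra4 and 0.471 (0.328 to 0.658) for Klra8. Their day 14 values rest on 8 of 34 cells each. With the cell richest in each gene left out on both days (chosen after the data were seen), the ratios were 0.403 and 0.382. With every library clustered separately they were 0.192 and 0.167, with 92 day 14 cells in the class in place of 34.

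Klrk1 (NKG2D) held the steadiest level of the 10. It stood at 919 CPM on day 3, 982 CPM on day 7 and 871 CPM on day 14, and the 3 intervals overlapped. UMIs of it were found in 91.2%, 96.2% and 88.2% of NK cell-like cells. Klrb1c (NK1.1, the classical surface marker of NK cells in this strain) stood at 581, 424 and 551 CPM. Its day 14 over day 7 ratio of 1.30 (1.01 to 1.65) turned to 0.501 with every library clustered separately. Klrc2 (NKG2C, the activating partner of CD94) stood at 621 CPM on day 3 and at 406 and 402 CPM on days 7 and 14. Its fall from day 3 to day 7 was to 0.654 times the earlier level (0.545 to 0.788), or 0.681 times without the richest cell of each day, which is short of the 1.5-fold.

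The inhibitory receptors parted from each other. Klra9 (Ly49I, an inhibitory receptor for MHC class I) had the largest change of any member in NK cell-like cells, with 676 CPM on day 3, 177 CPM on day 7 and 381 CPM on day 14. The day 7 level was 0.262 times that of day 3 (0.212 to 0.325), and the share of cells with a UMI went from 59.6% to 30.4%. Thinned to 1000 UMIs per cell, the expected shares were 40.1% and 15.2%. The day 14 level was 2.15 times that of day 7 (1.56 to 2.92), but a single cell held 22 of the 56 UMIs on day 14, and without the richest cell of each day the ratio was 1.46 (0.978 to 2.13). Klra7 (Ly49G, inhibitory) followed Klra4 and Klra8 instead, with 331, 317 and 163 CPM.

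Klrc1 (NKG2A, the inhibitory partner of CD94) dipped on day 7. It stood at 599 CPM on day 3, 382 CPM on day 7 and 701 CPM on day 14, with ratios of 0.637 (0.528 to 0.770) and 1.84 (1.46 to 2.29) between neighbouring days. Day 14 over day 3 was 1.17 (0.905 to 1.51), within counting error. With each library clustered on its own the day 14 over day 7 ratio turned to 0.956 for Klrc1 and 0.979 for Klra9. The balance between inhibitory and activating partner moved on day 14 and not with the dip on day 7. Klrc1 UMIs per Klrc2 UMI were 0.964 (0.773 to 1.20) on day 3, 0.939 (0.812 to 1.09) on day 7 and 1.75 (1.26 to 2.45) on day 14. The 3′ ends of these genes are alike: 26.3% of 98-base windows near the 3′ end of Klrc1 transcripts also occur in Klrc2, so some reads could not be assigned to either.

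The shared subunit Klrd1 (CD94) fell over the series, from 1202 CPM on day 3 to 876 CPM on day 7 and 756 CPM on day 14. Klre1, which forms heterodimers with KLRI proteins, took the same course with 1011, 836 and 585 CPM. Both were lowest on day 14, at 0.629 (0.502 to 0.782) and 0.579 (0.449 to 0.740) times their day 3 levels. Of 220 NK cell-like cells with Klrd1, 207 had a UMI of its partner genes Klrc1 or Klrc2, or 94.1% (90.1% to 96.8%).

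Ly49 genes were found in fewer NK cell-like cells than the other members, and Klra4 and Klra8 had the highest counts per positive cell. Klra4 was detected in 93 of 249 cells with a mean of 9.19 UMIs per positive cell, whereas Klrb1c was detected in 214 with a mean of 3.03. Klra8 had 6.74 UMIs in each of its 107 positive cells on average, Klra7 4.29 in 98 and Klra9 4.42 in 93. The means of Klrd1 (5.83 in 220 cells), Klrk1 (5.66 in 234), Klre1 (5.28 in 221) and Klrc1 (4.56 in 139) were above those of Klra7 and Klra9. Over the 3 days together each Ly49 gene was thus in a minority of these cells, and the other 6 were in most of them, from 139 of 249 for Klrc1 to 234 for Klrk1. On day 3 alone Klra9 was in most cells, 34 of 57 (59.6%).

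**Figure D2:**
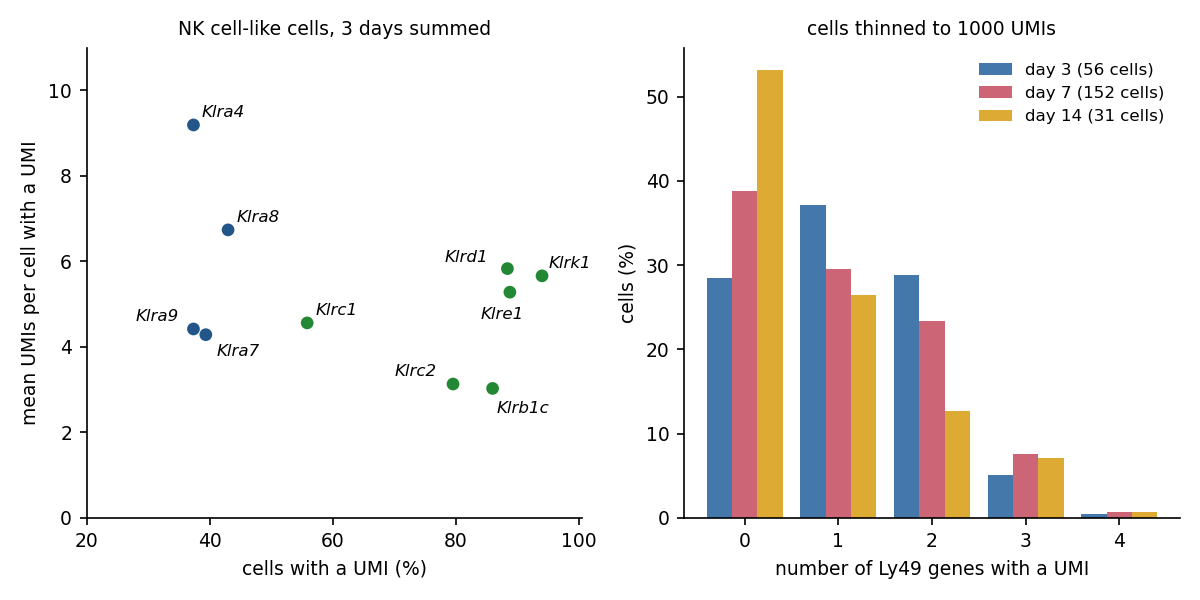
Left, percent of all 249 NK cell-like cells with a UMI of each gene (x axis) against the mean UMIs per cell with a UMI (y axis), with Ly49 genes in blue and other members in green. Right, expected percent of cells (y axis) with UMIs of 0 to 4 Ly49 genes (x axis) when each cell is thinned to 1000 UMIs. The share with none is 28.4% on day 3 and 53.1% on day 14.

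More NK cell-like cells had no Ly49 UMI on the later days. After thinning to 1000 UMIs, the expected share of NK cell-like cells with no Ly49 UMI was 28.4% on day 3 (17.2% to 42.1%, 56 cells), 38.8% on day 7 (31.0% to 47.1%, 152 cells) and 53.1% on day 14 (34.5% to 71.2%, 31 cells). The intervals of all 3 days overlapped. Unthinned, 8 of 57 cells on day 3 had none (14.0%, 6.26% to 25.8%), 40 of 158 on day 7 (25.3%, 18.7% to 32.8%) and 15 of 34 on day 14 (44.1%, 27.2% to 62.1%), and here the intervals of days 3 and 14 did not overlap. The mean number of the 10 receptors per thinned cell was 4.21 ± 1.27 (SD over cells), 3.75 ± 1.28 and 3.37 ± 1.45. With every library clustered separately, the day 14 mean was 1.90 and the share of cells with a Ly49 UMI 24.3% in place of 46.9%. The day 7 cells were the deepest, with a median of 5882.5 UMIs against 4290 and 4229.5.

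Pairs of receptors were not combined evenly over cells. In the 239 cells that could be thinned, Klra4 and Klra8 were expected together in 12.4% when the product of their single shares was 8.43%. Klra4 with Klra7 came to 8.04% against a product of 5.87%, and Klra7 with Klra8 to 7.62% against 5.73%. By day, the joint share of Klra4 and Klra8 was 1.42, 1.39 and 2.02 times the product on days 3, 7 and 14, whereas that of Klra4 and Klra7 was below it on day 3 (0.795 times) and above it on days 7 and 14 (1.40 and 2.28 times). Klrc1 went the other way with these 3 genes: it was expected with Klra4 in 4.33% against 9.02%, with Klra8 in 4.75% against 8.80% and with Klra7 in 3.21% against 6.13%. The joint share of Klrc1 with Klra4 was below the product on each day, at 0.722, 0.446 and 0.237 times it on days 3, 7 and 14. For Klra9 with Klrc1 the shares were 7.18% and 6.97%, or 1.08, 0.870 and 0.890 times the product by day. These are descriptions over cells that share 3 libraries.

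Cells with and without Ly49 differed in other genes. Of the NK cell-like cells, 186 had a UMI of any of the 4 Ly49 genes and 63 had none, with a median of 4976 and 6013 UMIs per cell. Klrc1 was 0.42 times as high in the cells with Ly49 (0.36 to 0.49) and Klre1 was 2.35 times as high (1.99 to 2.80), while Klrk1 hardly differed (1.07, 0.94 to 1.21). On a list of genes known from circulating, mature NK cells, all 10 were at least 1.5-fold higher in cells with Ly49 over the 3 days summed, when 13.7% of 6988 genes were. On day 3, with 8 cells lacking Ly49, Itga2 (0.837 times), Irf8 (0.830) and Klf2 (0.999) were not higher. S1pr5, which lets NK cells leave tissue, was 9.03 times as high (2.97 to 44.8, on 72 against 3 UMIs), Itgam 4.80 times (2.67 to 9.49) and the transcription factor Eomes 2.59 times (1.89 to 3.6).

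Genes known from tissue-resident innate lymphocytes ran opposite, with 8 of the 9 that had enough UMIs at least 1.5-fold lower in cells with Ly49, against 12.2% of all genes. Il7r, the receptor for interleukin-7, was 0.05 times as high in cells with Ly49 (0.03 to 0.07), Cxcr6 0.03 times (0.01 to 0.07) and Rora 0.09 times (0.05 to 0.14). The exception among those shown was Cd69, an early activation gene, at 1.45 times (1.08 to 1.98). Within day 7 alone the values were 0.06 (0.03 to 0.10) for Il7r and 2.43 (1.70 to 3.58) for Eomes. Granzyme A (Gzma) was 3.94 times as high in cells with Ly49 (3.64 to 4.27). Grouping by Ly49 rests on detection, so a shallow cell can be placed among those without.

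**Figure D3:**
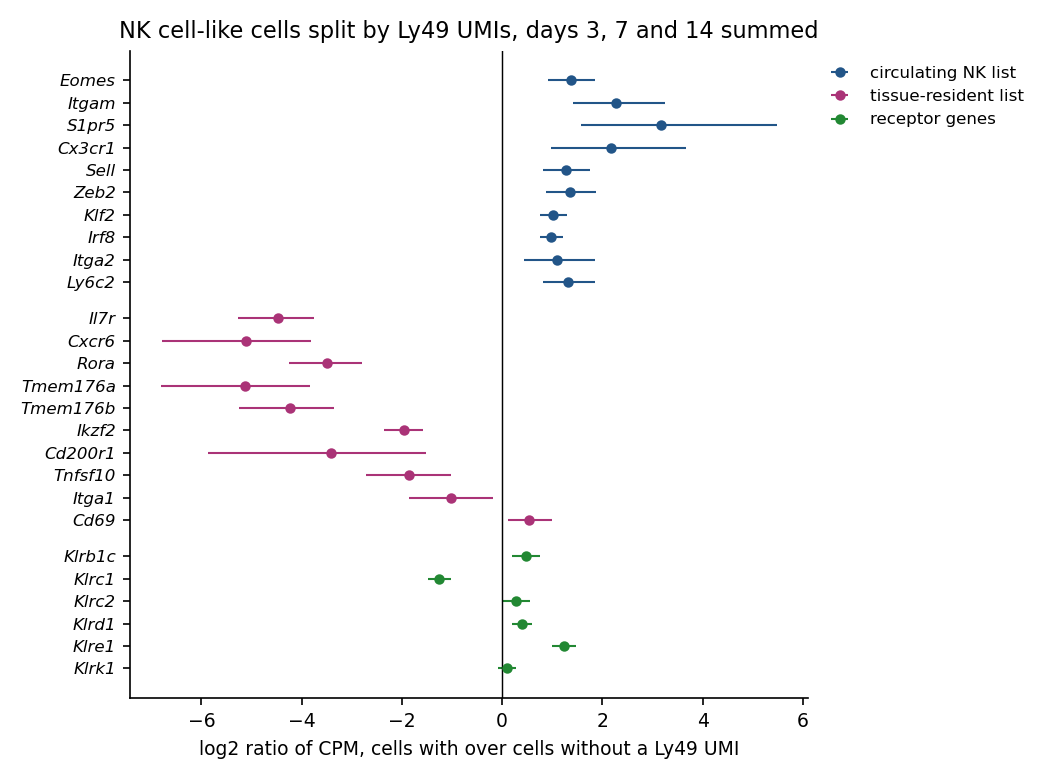
Log2 ratio of CPM in NK cell-like cells with a Ly49 UMI (186 cells) over those without (63 cells), days 3, 7 and 14 summed, with exact 95% intervals of counting error. Genes of the circulating list lie to the right of 0, and those of the tissue-resident list to the left except Cd69.

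The same lists moved between days. From day 3 to day 7, 0 of 10 circulating genes were at least 1.5-fold higher and 8 were lower, with a median log2 ratio of -1.09 against -0.07 for all genes tested. Of the resident list, 9 of 12 genes had enough UMIs, 8 of them were higher and the median was 2.40. Among all 6641 genes tested, 16.3% were higher and 17.4% lower. Il7r went from 25.7 to 136 CPM and to 204 CPM on day 14, and Ly6c2 was at 113 CPM on day 7, or 0.226 times its day 3 level (0.174 to 0.293). From day 7 to day 14, 2 of 10 circulating genes were higher and 2 lower, near the 16.9% and 17.9% of all genes, and 4 of 9 resident genes were higher and 1 lower. Eomes stood at 316, 270 and 109 CPM. Whether the mixture of cells or each cell's expression moved the receptors was not tested.

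T cell-like cells carried each of the 10 receptors at a lower level than NK cell-like cells on days 3, 7 and 14. Their summed level was 258 CPM on day 0 (29 UMIs in 17 cells), 1248 CPM (1139 to 1364) on day 3, 949 CPM (911 to 988) on day 7 and 838 CPM (764 to 918) on day 14. The fall from day 3 to day 7 was to 0.760 (0.689 to 0.840) and that from day 7 to day 14 to 0.883 (0.798 to 0.976), a ratio that was 0.0977 with each library clustered on its own (34 cells on day 14) and 1.06 as the mean of single cells. The makeup of the class differed between these days. The cluster led by Ccl5 and Nkg7 held 42 of 66 cells on day 3, 161 of 374 on day 7 and 39 of 98 on day 14, and the one led by Icos 20, 178 and 39. NK markers in the class summed to 17468, 5305 and 4679 CPM, and Cd8a was at 329, 113 and 110 CPM. The 12 fibroblast markers summed to 411, 1085 and 1133 CPM in these cells (9, 12 and 11 detected). The part of these shifts in the falls was not tested. Within the Ccl5 and Nkg7 cluster the receptors stood at 1925 CPM (1756 to 2106), 1722 CPM (1645 to 1803) and 2129 CPM (1923 to 2350), with overlapping intervals on days 3 and 7. NK cell-like cells stood 5.73, 5.90 and 5.99 times as high on days 3, 7 and 14, and 30.4 times on day 14 with every library clustered separately. Between days 3 and 7, 4 members were at least 1.5-fold higher and 3 lower, against 17.0% and 16.0% of 8684 genes. Between days 7 and 14, 1 was higher and 4 lower, against 13.1% and 13.0% of 8891 genes.

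The CD94 and NKG2 genes made up most of the signal in T cell-like cells. Klrd1 was at 380, 252 and 255 CPM on days 3, 7 and 14, and Klrc1 at 270, 136 and 103 CPM. Klrk1, a costimulatory receptor on CD8 T cells, was at 313, 191 and 228 CPM. All 3 were highest on day 3, and their day 7 over day 3 ratios were 0.662 (0.553 to 0.798), 0.505 (0.404 to 0.635) and 0.609 (0.498 to 0.749). Klrc2 stood at 131, 110 and 85.1 CPM and Klre1 at 118, 100.4 and 61.5 CPM, with overlapping intervals between days 3 and 7. Of 219 T cell-like cells with Klrd1, 148 had a UMI of Klrc1 or Klrc2, or 67.6% (60.9% to 73.7%).

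One inhibitory Ly49 gene stood out from the other 3 in T cell-like cells. Klra7 was at 0 on day 0, 15.4 CPM on day 3, 91.9 CPM on day 7 and 65.2 CPM on day 14. It was found in 2 of 66, 53 of 374 and 10 of 98 cells on days 3, 7 and 14. Of the 53 cells on day 7, 50 had a UMI of a Cd3 gene, 14 of Cd8a or Cd8b1, 16 of Eomes, 8 of Ncr1 and 3 of Cd4, so most of them carried transcripts of the T cell receptor complex. T cell-like cells held 37.7% of the Klra7 UMIs of the cells kept, against 8.97% for Klra9. The rise on day 7 was not particular to Klra7 in the wider family. Of 6 other family genes tested, Klra1, Klra3, Klra6 and Klrb1b were at least 1.5-fold higher than on day 3 and Klrg1 was lower. Among all 8684 genes, 17.0% were higher and 16.0% lower. Klra9 was at 9.35 CPM on day 7 and 29.0 CPM on day 14, on 23 UMIs in 10 cells and 16 UMIs in 4 cells, and the ratio turned to 0 with every library clustered separately.

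Klra4 and Klra8 were close to absent from T cell-like cells, and what was counted came mainly from a single cell. On day 7, 46 of 48 Klra4 UMIs and 23 of 28 Klra8 UMIs were in 1 dividing cell with 5 Ncr1 UMIs, 30 Gzma UMIs and no UMI of Cd3d, Cd3e or Cd3g. On days 0, 3 and 14 neither gene had a UMI. These are 2 of the 4 members counted as higher on day 7 and 2 of the 4 counted as lower on day 14. Klrb1c, which marks NK cells and natural killer T cells, was at 12.8, 28.0 and 10.9 CPM on days 3, 7 and 14, and its day 7 over day 3 ratio of 2.18 had an interval of 0.892 to 6.94. Without the cluster of dividing cells, left out after the data were seen, the summed day 14 over day 7 ratio was 0.990 (0.892 to 1.1).

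**Figure D4:**
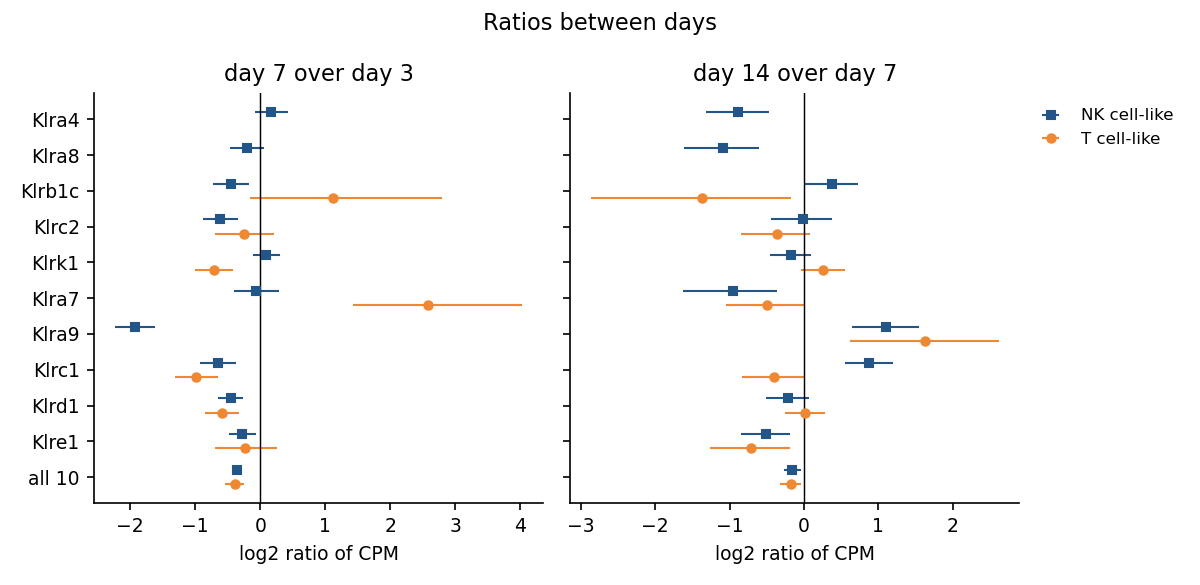
Log2 ratio of CPM between days for each gene and for the 10 summed, in NK cell-like (squares) and T cell-like cells (circles), with exact 95% intervals of counting error. Points are drawn where both days together hold at least 20 UMIs and each day more than 3. Klra9 shows the largest fall in NK cell-like cells on day 7, and Klra7 the largest rise in T cell-like cells.

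Among T cell-like cells, all days pooled, the summed level was highest in those with a Cd8 gene and lowest in those with Cd4, an order that did not hold on every day. Cells with Cd8a or Cd8b1 and no Cd4 (135 cells) had a summed level of 1434 CPM over all days, cells with Trdc, a gamma-delta T cell receptor gene, 1019 CPM (82 cells) and cells with Cd4 and no Cd8 gene 262 CPM (145 cells). Klrd1 was found in 74.8%, 37.8% and 20.0% of them. In the CD8 gate the summed level went from 1934 CPM (1752 to 2129) on day 3 to 1391 CPM (1298 to 1489) on day 7 and 957 CPM (806 to 1128) on day 14, in 33, 80 and 20 cells. In the CD4 gate it was 161 CPM (83.4 to 282), 229 CPM (195 to 268) and 691 CPM (530 to 886), in 14, 108 and 18 cells. Cells with no UMI of Cd4, Cd8a, Cd8b1 or Trdc, a gate chosen after seeing the data, stood at 1134 CPM (187 cells), and 42 of them had Klra7. On day 14 they were at 1071 CPM (934 to 1222), not below the CD8 gate, and cells with Trdc at 352 CPM (249 to 483) were below the CD4 gate. By cluster, the one led by Ccl5 and Nkg7 had 1772 CPM, the one of dividing cells 823 CPM (725 to 929, 16 cells), the one led by Icos 196 CPM and the one led by Trdc 155 CPM. In that last cluster Klrk1 was at 135 CPM and Klrd1 at 3.98 CPM (1 UMI).

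T cell-like cells with a UMI of Ncr1 were few, and their receptor level was high. They numbered 22 and stood at 3054 CPM, between the 819 CPM of the other 533 and the 5843 CPM of NK cell-like cells. Leaving them out, the day 7 over day 3 ratio was 0.673 (0.607 to 0.745). Whether they are T cells, NK cells or droplets with more than 1 cell was not tested.

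Dendritic-like cells carried 2 of the 10 genes at a clear level, Klrd1 and Klrk1. Klrd1 was at 419 CPM (395 to 445) on day 3, 500.4 CPM (480 to 521) on day 7 and 428 CPM (361 to 503) on day 14, and was found in 126 of 171, 259 of 365 and 22 of 44 cells. Day 7 was higher than day 3 by a ratio of 1.19 (1.11 to 1.28), which ranged from 1.06 to 1.35 over the alternatives run. Klrk1 was at 102, 102 and 169 CPM, with day 14 at 1.66 times day 7 (1.24 to 2.18, on 58 and 466 UMIs). Over the same days NK markers in this class summed to 245, 533 and 861 CPM (10, 13 and 7 of 15 detected, with Ncr1 at 0 on days 3 and 14), and Cd209a stood at 1085, 1064 and 500.3 CPM. The cluster led by Ciita and Bcl11a made up 7.67% of the class on day 7 and 25.0% on day 14. The part of these shifts in the receptor values was not tested. The depth of these cells fell from a median of 16552 UMIs on day 3 to 5655.5 on day 14. Thinned to 1000 UMIs, Klrd1 was expected in 27.9%, 29.7% and 26.5% of cells.

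The genes of the NKG2 partners of CD94 were scarce beside them. Klrc2 was at 3.74, 2.84 and 0 CPM on days 3, 7 and 14 and Klrc1 had 1, 4 and 0 UMIs. Klre1 was at 8.97, 9.83 and 8.73 CPM, and each of the 4 Ly49 genes had at most 4 UMIs on any day. Of 407 dendritic-like cells with Klrd1, 20 had a UMI of Klrc1 or Klrc2, or 4.91% (3.03% to 7.49%), against 94.1% in NK cell-like cells. Hcst (DAP10), through which NKG2D signals, was at 23.2, 19.9 and 17.5 CPM in dendritic-like cells and at 551, 481 and 694 CPM in NK cell-like cells. Tyrobp was high in both, at 1539, 1488 and 1146 CPM against 1805, 1507 and 1273 CPM.

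Klrd1 was counted in dendritic-like cells almost without Gzma, an abundant granule enzyme of NK cells. Gzma had 3, 9 and 1 UMIs in dendritic-like cells on days 3, 7 and 14 beside 1122, 2290 and 147 UMIs of Klrd1. In NK cell-like cells there were 0.115, 0.211 and 0.135 Klrd1 UMIs per Gzma UMI. Monocyte/macrophage-like cells, with far less Klrd1, also had more of it than of Gzma: 43, 99 and 13 UMIs beside 3, 25 and 1. They had Klrd1 in 5.37% of cells, neutrophil-like cells in 2.26% and fibroblast-like cells in 1.66%, at median depths of 9701, 2913 and 15885 UMIs. Dendritic-like cells held 55.7% of all Klrd1 UMIs of the cells kept and NK cell-like cells 20.1%.

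Dendritic subsets differed in Klrd1 more than in Klrk1. Cells with Cd209a and none of Xcr1, Clec9a, Ccr7 or Fscn1 had Klrd1 at 530 CPM (316 cells), cells with Ccr7 or Fscn1, genes of migratory dendritic cells, at 466 CPM (120 cells) and cells with Xcr1 or Clec9a, genes of cross-presenting dendritic cells, at 248 CPM (52 cells). Klrk1 was at 104, 113 and 145 CPM in the same order. The Ccr7 or Fscn1 gate drew on unlike clusters. Of its 120 cells, 86 were in the cluster led by Ccr7, Ccl22 and Fscn1 and had Klrd1 at 228 CPM (197 to 262), and 32 were in the cluster led by Cd209a and Clec10a and had it at 895 CPM (812 to 983), which held 435 of the gate's 634 Klrd1 UMIs. The whole cluster led by Ccr7, Ccl22 and Fscn1 (89 cells) stood at 227 CPM (197 to 260), below the 508 CPM (491 to 525) of the 434 cells of the one led by Cd209a. By day, Klrd1 in the former was at 271 CPM (218 to 334) on day 3 and 214 CPM (177 to 258) on day 7, and in the latter at 446 CPM (419 to 474) and 544 CPM (521 to 567), a rise with intervals that did not overlap in the latter alone of the pair. On day 14 the former was at 44.1 CPM (5.35 to 159, 2 UMIs in 6 cells), below its day 7 interval, and the latter at 508 CPM (428 to 600.0). The highest share was in the 11 plasmacytoid dendritic-like cells, all of which had Klrd1, at 568 CPM (443 to 718).

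**Figure D5:**
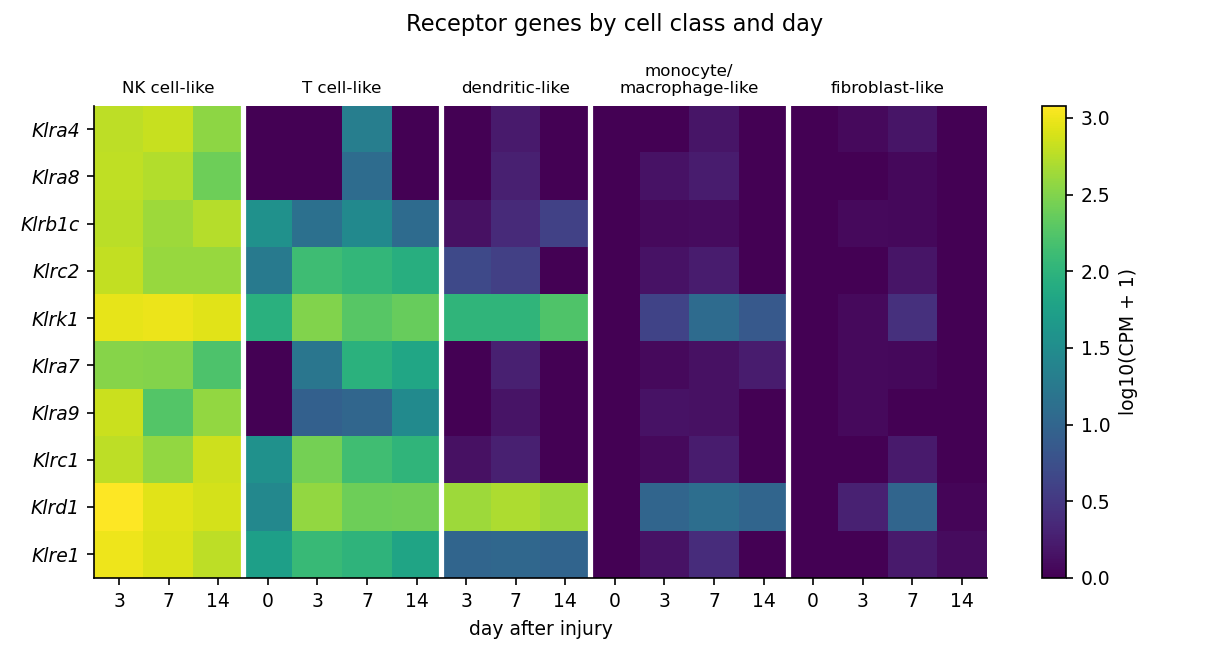
Level of each receptor gene as log10(CPM + 1), by colour, in NK cell-like, T cell-like, dendritic-like, monocyte/macrophage-like and fibroblast-like cells (columns, by day after injury). All 10 genes are high in NK cell-like cells, and Klrd1 and Klrk1 extend to both T cell-like and dendritic-like cells. Klrc1, Klrc2, Klre1 and, at a lower level, Klra7 extend to T cell-like cells, and fibroblast-like cells are near 0.

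Of the remaining classes, the 11 plasmacytoid dendritic-like cells stood at 584 CPM (457 to 736), almost all of it Klrd1, and cells of clusters without a name at 206 CPM (190 to 223). In the others the summed level was 26.8 CPM (17.8 to 38.8) in neutrophil-like, 22.3 CPM (19.9 to 24.8) in monocyte/macrophage-like, 11.8 CPM (6.09 to 20.6) in endothelial-like, 5.91 CPM (0.150 to 33.0) in B cell-like, 4.18 CPM (3.39 to 5.11) in fibroblast-like and 2.44 CPM (1.30 to 4.17) in smooth muscle-like cells, against 5843, 942 and 589 CPM in NK cell-like, T cell-like and dendritic-like cells. Neutrophil-like and monocyte/macrophage-like cells did not differ beyond their intervals, nor did smooth muscle-like from fibroblast-like or B cell-like cells.

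Other genes of the family split between lymphoid and myeloid cells. Of 19 listed, 16 were in the files. In NK cell-like cells from day 3 to day 7, 8 had enough UMIs and 1 was higher and 4 lower, when 16.3% and 17.4% of all genes were. Klri2, an activating partner of Klre1, was at 261, 237 and 47.7 CPM on days 3, 7 and 14, and Klrb1b, an inhibitory receptor for the protein made by Clec2d, at 239, 234 and 408 CPM. Klrb1b was also present in dendritic-like cells, at 128, 158 and 98.9 CPM. Klra2, an inhibitory Ly49 receptor of myeloid cells, was at 49.7, 84.5 and 51.4 CPM in monocyte/macrophage-like cells and had 2 UMIs at most in NK cell-like cells on any day. The rest of the NK pattern included Klrg1, a receptor of mature NK cells, which stood at 173, 43.5 and 34.0 CPM, and Klra3 (Ly49C) at 265, 89.2 and 34.0 CPM.

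Of 18 adaptors and signalling partners listed, 16 had enough UMIs in NK cell-like cells. On day 7, 2 were higher and 2 lower than on day 3, with a median log2 ratio of -0.15, and on day 14, 2 were higher and 3 lower than on day 7. These shares are near those of all genes (16.3% and 17.4%, then 16.9% and 17.9%). Fcer1g, an adaptor for Klrb1c, was at 2077, 1584 and 2035 CPM, and Sh2d2a, a T cell and NK cell adaptor, at 301, 282 and 170 CPM. Sh2d1a, which tunes NK receptor signals, stood at 107, 188 and 61.3 CPM.

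Ligands of the receptors were measured in the cells of the vessel wall. Of 20 listed, 15 were in the files. In fibroblast-like cells H2-K1, a classical MHC class I gene, was at 385, 208, 462 and 391 CPM on days 0, 3, 7 and 14 and H2-D1 at 778, 287, 708 and 740 CPM, so that day 3 was lowest for both. In smooth muscle-like cells H2-K1 was at 120, 131, 199 and 181 CPM. H2-T23, which encodes Qa-1, was at 34.8, 107 and 485 CPM in endothelial-like cells on days 3, 7 and 14 (7, 80 and 26 UMIs) and between 117 and 167 CPM in fibroblast-like cells. Ligands of NKG2D were scarce: Raet1e reached 49.4 CPM in endothelial-like cells on day 7, Ulbp1 39.8 CPM on day 3 in the same cells, and H60c had no UMI in any class listed here.

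The genes most like the summed receptors across classes and days were Padi2, Nup210, Cd7, Hs3st3b1 and Cst7. Pearson correlations of log2(CPM + 10) over 26 class-by-day sums ranged from 0.936 to 0.969 among 13614 genes. Between members, Klra4 and Klra8 correlated at 0.995, Klrc1 and Klrc2 at 0.991 and Klrd1 and Klrk1 at 0.964. The points share 4 libraries and the correlations are descriptions.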

How the data were processed

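Single cells of mouse carotid arteries were profiled with a droplet 3′ kit at 4 time points. The authors aligned and counted the reads with Cell Ranger and deposited raw UMI counts per gene and barcode, without normalization. Version 3.0.2 stands in the headers of the matrices and another version in the methods text. The submitters' processing notes name GRCh38, a human build, so no coordinate was taken from the count files.

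Barcodes with at least 200 genes and at most 20% mitochondrial UMIs were kept (453 failed). Doublets were scored with Scrublet in scanpy 1.11.5, whose own threshold marked 17, so the top scores at 0.8% per 1000 barcodes were removed instead (106, or 1.72%). Cells were clustered (Leiden, resolution 1, 2000 variable genes, 30 components) and clusters were named from markers (at least 3 detected and enriched, with 2 among the top 10 genes and 40% of the list enriched, or 60% of the list). The naming rule, and the splitting of mixed clusters, were settled after seeing the data. The study's annotation was not used here.

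UMIs were summed per class and day and divided by all UMIs of the same cells. Intervals are exact Poisson, exact conditional binomial (ratios) or Clopper-Pearson (shares), all at 95%. Genes past a fold needed 20 UMIs over both days. Shares at equal depth are expected values of drawing 1000 UMIs per cell, with shallower cells left out (10 of 249 NK cell-like cells). A count of 0 allows up to 3 UMIs or cells. Named genes were the 10 members, up to 4 of highest counts per list, with some further members of the lists chosen after their values were seen, and the 5 genes most like the members. The functions were tested on simulated data. The members and lists were chosen with earlier results of these data known. Alternatives covered filters, clustering, denominators, thinning, folds and leaving out doubtful cells. Values by cluster within the T cell-like and dendritic-like classes, and the background of the comparison of cells with and without Ly49, were added once the results had been seen.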

Additional observations from a re-analysis of the deposited data

Results flagged for a closer look

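Receptor UMIs were also present in cells outside the comparisons. Cells of clusters that could not be named held the summed receptors at 225 CPM on day 3 (196 to 258), 238 CPM on day 7 (215 to 263) and 40.5 CPM on day 14 (18.5 to 77.0), above the 3.20, 1.83 and 13.5 CPM that a count of 0 allows. Passing that bound, here and below, shows only that UMIs were counted. Among them were a cluster led by interferon-induced genes (Ifit1, Cxcl10, Rsad2; 56 cells, 446 CPM) and a dividing cluster led by Mgl2 (32 cells, 264 CPM), both with most of their UMIs from Klrd1. A cluster of shallow cells (339 cells, median 756 UMIs) stood at 474 CPM.

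Klrd1 stood at 599 CPM (463 to 762) in the 10 plasmacytoid dendritic-like cells of day 7, where a count of 0 allows 27.2 CPM. Barcodes removed by the filters held the summed receptors at 105 CPM on day 3 (81 UMIs in 181 barcodes) and at 335 CPM on day 7 (517 UMIs in 308 barcodes).

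From day 3 to day 7 the summed receptors fell in NK cell-like cells, to 0.783 times, and rose in dendritic-like cells, to 1.16 times, so that the ratios differed by 1.48 times. The dendritic-like ratio was between 1.03 and 1.08 under 4 alternatives (no doublet removal, at least 500 genes, resolution 1.5, all genes free to be variable), close to no change. With 1 library per day this difference was not tested.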

How the results depend on the processing

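No paired analysis was possible because each day has 1 library. The fall of the summed receptors in NK cell-like cells from day 3 to day 7 was seen under every alternative run. Clustering each library on its own gave 92 NK cell-like and 34 T cell-like cells on day 14, in place of 34 and 98. Over all days, 246 of the 249 NK cell-like cells kept their class, and 475 of the 555 T cell-like cells did. The day 14 values under it are thus of other sets of cells than the main ones. This clustering moved most day 14 values: in NK cell-like cells 0.498 over day 7, 0.394 over day 3, 70.3% with any receptor UMI, 24.3% with a Ly49 UMI and 1.90 receptors per cell; in T cell-like cells 0.0977 over day 7; in dendritic-like cells 1.30 (day 7 over day 3) and 0.736 (day 14 over day 7); and NK cell-like over T cell-like cells 30.4. Under it the day 14 over day 7 ratios turned to 0.979 for Klra9, 0.501 for Klrb1c and 0.956 for Klrc1 in NK cell-like cells and to 0 for Klra9 in T cell-like cells.

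As means of single-cell CPM, the ratios were 0.848 (NK cell-like, day 7 over day 3), 0.821 (day 14 over day 3), 0.664 (T cell-like, day 7 over day 3), 1.06 (T cell-like, day 14 over day 7, a turn in direction), 0.835 (dendritic-like, day 14 over day 7) and 7.27 (NK cell-like over T cell-like, day 7). Without mitochondrial and ribosomal protein genes in the denominator they were 0.856 (NK cell-like, day 7 over day 3) and 5.57 (over T cell-like, day 7). The dendritic-like rise was 1.08 without doublet removal, 1.05 with at least 500 genes, 1.03 at resolution 1.5 and 1.08 with all genes free to be variable, and the day 7 ratio over T cell-like cells 5.61 and 6.23 under the last 2. Without Ncr1 or dividing cells, T cell-like cells stood at 0.673 (day 7 over day 3) and 0.990 (day 14 over day 7).

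Thinning to 2000 UMIs gave 99.9% with a receptor on day 7 and 5.69 and 5.11 receptors per cell on days 3 and 7. No thinning gave 100% with a receptor on days 3, 7 and 14, and 86.0% and 74.7% with a Ly49 UMI on days 3 and 7. With a fold of 2, NK cell-like counts were 1 lower (day 7 over day 3), 1 higher and 1 lower (day 14 over day 7) and 2 lower (day 14 over day 3), and T cell-like 0 lower (day 7 over day 3). With at least 50 UMIs, T cell-like counts were 2 higher (day 7 over day 3), 0 higher and 2 lower (day 14 over day 7). The share of all genes past these other cuts is not given, so the counts cannot be read against it. Without cells with a Cd3 UMI, 0 resident genes were lower on day 14. The causes were not tested. Of 477 values of single receptors under the alternatives, 447 stayed within counting error, 26 moved further and 4 turned in direction (those above).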
